A study of Homo sapiens with 6 samples.

Results

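The 10 genes described here encode the 3 fibrinogen chains (FGA, FGB and FGG) and a group of proteins best known as products of the liver: FGL1, APOH, CP, SERPINA3, SERPINA1, BAAT and APOC1. They were taken by gene symbol from 25141 genes measured on 6 whole-transcript arrays of A549, an established human lung adenocarcinoma line, and each was represented by 1 transcript cluster, meaning the probes that read the same locus. They were picked because of their difference between the groups on these same arrays, so their values are a description and carry no test. Per the labels, 3 arrays came from A549 cells stably expressing a lentiviral control shRNA and 3 from A549 cells stably expressing a lentiviral shRNA that targets S100A4, a small calcium-binding protein. Both lines were kept in DMEM/F12 with 10% serum, antibiotics and glutamine, fed the day before harvest and taken at about 70% confluence, after 3 days of culture by the sample description or 2 days by the treatment protocol. The labels name 1 shRNA per group and do not say whether a line is a clone or a pool.

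Fibrinogen is a secreted glycoprotein built from pairs of alpha, beta and gamma chains, and thrombin turns it into the fibrin mesh of a clot. In the body its main source is the hepatocyte, where the genes of the chains, which lie side by side, are driven by liver factors such as C/EBP and raised by interleukin 6 and glucocorticoids during the acute-phase response. Lung epithelial cells, A549 among them, can also make fibrinogen when given those signals. Alpha-1-antichymotrypsin (SERPINA3), alpha-1-antitrypsin (SERPINA1) and ceruloplasmin (CP) are acute-phase proteins too, whereas beta-2-glycoprotein I (APOH), the bile acid conjugating enzyme BAAT and apolipoprotein C-I (APOC1) mark the liver for other functions.

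S100A4 itself had log2 signals of 7.57, 7.12 and 7.18 in the controls, against 5.74, 5.51 and 5.44 with S100A4 shRNA, so the target was lower on each array labelled with its shRNA (log2 difference -1.73, limma adjusted p = 0.000453, and two-sided exact permutation p = 0.1, which is as low as this design can go). S100A4 passed the 95th percentile of the negative control probe sets on 2 of the 6 arrays, both controls. The size of its difference thus rests on signals not clear of background. Arrays correlated across genes at r of at least 0.9926, also between the groups. The positive control probe sets, labelled as housekeeping controls, had a median between 13.5 and 13.6 on the control arrays and between 13.2 and 13.4 on the S100A4 shRNA arrays. That difference of -0.23 goes with the same arrays as every difference below, and its part in them was not tested. The number of arrays limits the precision, and p-values reflect only how far these arrays vary, since the labels call them biological replicates but give no further shRNA and no independently made line.

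The promoter windows of 5 members are shown, those that hold GTTAAT or CTGGGA among the windows searched. These members are the 3 fibrinogen chains and APOH, which were higher on the S100A4 shRNA arrays, and SERPINA1, which was not. The windows of SERPINA3 and BAAT, also higher, and of APOC1 hold neither. Each window runs from 250 bases before to 50 bases after the start of the gene in RefSeq (GRCh38.p14), written 5′ to 3′ on the strand of the gene. The windows lie at chr4:154590693-154590992 on the minus strand (FGA), chr4:154562730-154563029 on the plus strand (FGB), chr4:154612607-154612906 on the minus strand (FGG), chr17:66229366-66229665 on the minus strand (APOH) and chr14:94388553-94388852 on the minus strand (SERPINA1). Capitals mark matches to GTTAAT, a short motif found in promoters of liver genes, and to CTGGGA, the core of the interleukin 6 response element of acute-phase genes, on either strand.
FGA: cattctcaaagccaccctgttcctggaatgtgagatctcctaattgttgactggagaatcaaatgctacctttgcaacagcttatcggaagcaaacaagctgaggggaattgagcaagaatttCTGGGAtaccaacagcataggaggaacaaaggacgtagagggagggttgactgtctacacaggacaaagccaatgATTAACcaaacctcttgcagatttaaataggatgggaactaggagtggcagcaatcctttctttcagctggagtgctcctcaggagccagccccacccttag
FGB: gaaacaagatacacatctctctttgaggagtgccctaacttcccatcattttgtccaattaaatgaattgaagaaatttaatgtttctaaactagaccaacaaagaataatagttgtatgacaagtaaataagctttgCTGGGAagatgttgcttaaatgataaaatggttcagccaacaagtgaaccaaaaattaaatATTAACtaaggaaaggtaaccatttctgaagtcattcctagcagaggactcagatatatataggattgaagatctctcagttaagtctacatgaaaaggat
FGG: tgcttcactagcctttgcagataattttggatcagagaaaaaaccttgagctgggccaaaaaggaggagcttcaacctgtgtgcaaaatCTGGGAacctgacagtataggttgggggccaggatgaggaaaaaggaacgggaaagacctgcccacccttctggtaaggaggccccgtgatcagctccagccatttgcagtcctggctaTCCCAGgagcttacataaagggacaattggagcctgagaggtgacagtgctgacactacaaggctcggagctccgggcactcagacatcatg
APOH: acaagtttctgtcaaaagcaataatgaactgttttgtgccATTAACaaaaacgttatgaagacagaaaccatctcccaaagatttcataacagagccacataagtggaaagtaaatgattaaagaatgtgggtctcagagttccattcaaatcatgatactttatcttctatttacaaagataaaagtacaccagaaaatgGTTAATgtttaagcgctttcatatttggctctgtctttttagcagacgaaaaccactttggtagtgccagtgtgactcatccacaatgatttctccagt
SERPINA1: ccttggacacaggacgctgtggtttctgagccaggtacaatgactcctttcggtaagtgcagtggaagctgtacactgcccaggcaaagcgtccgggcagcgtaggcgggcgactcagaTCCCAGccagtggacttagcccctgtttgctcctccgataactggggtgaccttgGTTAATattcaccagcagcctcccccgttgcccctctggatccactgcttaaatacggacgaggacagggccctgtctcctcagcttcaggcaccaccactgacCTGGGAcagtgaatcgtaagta

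Promoter windows of 8 of the 10 members were searched (all but CP and FGL1), 11 windows in all. Member windows on chromosome 8, where FGL1 lies, were left out of the search, but the shares over all windows include that chromosome. The letters GTTAAT stood in the windows of FGA, FGB, APOH and SERPINA1, that is in 4 of the 8 genes and 5 of the 11 windows. They stood in 6.88% of all 35116 promoter windows of the reference. The shares given count windows, and no share over all genes was computed. In FGA this match began 52 bases before the start, and in FGB 51 or 82 bases before it, depending on which of its annotated starts is used. CTGGGA stood in the windows of FGA, FGB, FGG and SERPINA1, that is in 5 of the 11 windows, and in 33.3% of all windows. A C/EBP motif, TTNNGNAA, matched in 7 of the 8 genes and in 8 of the 11 windows (36.8% of all windows). TTCNNNGAA, the palindrome bound by STAT factors, matched in FGA alone (7.66% of all windows). The glucocorticoid receptor motif AGAACA matched in SERPINA3 and BAAT (14.8%), the NR5A2 motif CAAGGNCA in SERPINA1 (5.28%) and the FOXA motif TGTTTAC in none (3.42%). None of the other matches in the windows shown overlapped the capitals. All motifs were searched on both strands, and the matches describe letters in the windows and say nothing of binding.

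FGA, the alpha chain, which carries the fibrinopeptide that thrombin cuts off first, read 5.20, 5.33 and 5.40 on the control arrays, against 8.26, 7.96 and 8.22 on the S100A4 shRNA arrays (log2 signal). The lowest S100A4 shRNA array lay 2.56 above the highest control array. The log2 difference was 2.84 (SE 0.10, n = 3 each) or 7.15-fold, and 3.30-fold in the authors' deposited table. The control arrays of FGA lay below the 95th percentile of the negative control probe sets (between 7.13 and 7.22 on these arrays). The fold is therefore set against a signal not clear of background. These are bulk samples, so that fewer cells making a transcript and less transcript per cell cannot be told apart.

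FGB, the beta chain, whose synthesis is known from hepatoma cells to limit assembly of the hexamer, read 5.48, 5.30 and 5.08 in the controls, against 7.63, 7.53 and 7.56 with S100A4 shRNA. The groups were 2.05 apart at their nearest arrays. The log2 difference was 2.28 (SE 0.10), 4.86-fold, again against control arrays below that percentile. FGG, the gamma chain, which carries the platelet and factor XIII binding sites at its end, read 4.61, 4.60 and 4.47 in the controls, against 5.10, 5.09 and 5.18 with S100A4 shRNA. Here too no array of 1 group reached the other, but the nearest arrays were only 0.48 apart. The log2 difference of FGG was 0.56 (SE 0.07), 1.48-fold. With these signals below that percentile, the sizes of the 3 differences are not ranked here. The negative control probe sets, labelled negative housekeeping controls, had a median between 4.18 and 4.27 and a 95th percentile between 7.13 and 7.36. All 6 arrays of FGG lay above that median and below that percentile, whereas FGA and FGB passed the percentile on the 3 S100A4 shRNA arrays and on no control array.

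FGL1 is a secreted protein with a fibrinogen-like domain that lacks the parts needed to form a clot, made mainly by hepatocytes and known as a ligand of the T cell receptor LAG3. It read 4.92, 4.76 and 4.79 in the controls, against 5.49, 5.52 and 5.44 with S100A4 shRNA. Each S100A4 shRNA array was higher than each control array, by at least 0.52. The log2 difference was 0.66 (SE 0.07), 1.58-fold, and like FGG the gene stayed below the 95th percentile of the negative controls on all arrays.

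APOH, the plasma protein that binds anionic phospholipids and is the target of antiphospholipid antibodies, read 7.19, 7.21 and 7.0 on the control arrays and 8.49, 8.49 and 8.24 on the S100A4 shRNA arrays. The groups were 1.03 apart, with a log2 difference of 1.27 (SE 0.09), 2.42-fold. CP, the copper-carrying ferroxidase that helps iron leave cells, read 7.31, 7.09 and 7.13 in the controls, against 8.53, 8.41 and 8.29 with S100A4 shRNA. They were 0.98 apart, with a log2 difference of 1.23 (SE 0.09), 2.35-fold. BAAT, a peroxisomal and cytosolic enzyme that joins bile acids to glycine or taurine and the only member that is not secreted, read 6.13, 6.32 and 6.20 in the controls, against 7.67, 7.63 and 7.39 with S100A4 shRNA. Its groups were 1.06 apart, with a log2 difference of 1.35 (SE 0.09), 2.55-fold. In order of their difference, BAAT, APOH and CP each differed from the next by less than that SE. The control arrays of BAAT lay below the 95th percentile of the negative controls. APOH and CP each passed it on 4 of the 6 arrays, and the arrays below it were controls. No member passed it on all 6 arrays.

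The serpins are protease inhibitors that trap their target by a change of shape. SERPINA3, which inhibits cathepsin G and chymase, read 5.34, 5.18 and 5.37 in the controls, against 6.25, 6.29 and 6.07 with S100A4 shRNA. The groups were 0.70 apart, and the log2 difference was 0.91 (SE 0.08), 1.87-fold. SERPINA1, the main inhibitor of neutrophil elastase in the lung, read 3.68, 3.85 and 3.64 in the controls, against 3.61, 3.60 and 3.66 with S100A4 shRNA. It was the only member whose groups overlapped, and all 6 arrays lay below the median of the negative controls. Its log2 difference was -0.10 (SE 0.07), and 0.13 when the arrays were scaled to the positive controls, so no direction can be given.

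APOC1, a small apolipoprotein that inhibits lipoprotein uptake and cholesteryl ester transfer, was the only member that was lower with S100A4 shRNA beyond the range of the controls. It read 7.85, 7.81 and 7.92 in the controls, against 7.46, 7.36 and 7.23 with S100A4 shRNA. The nearest arrays were 0.35 apart, and the log2 difference was -0.51 (SE 0.08), 1.42-fold lower. It stayed lower after scaling to the positive controls (-0.28). A pseudogene, APOC1P1, lies beside APOC1, and whether its transcript reaches the same probes was not tested.

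**Figure D1:**
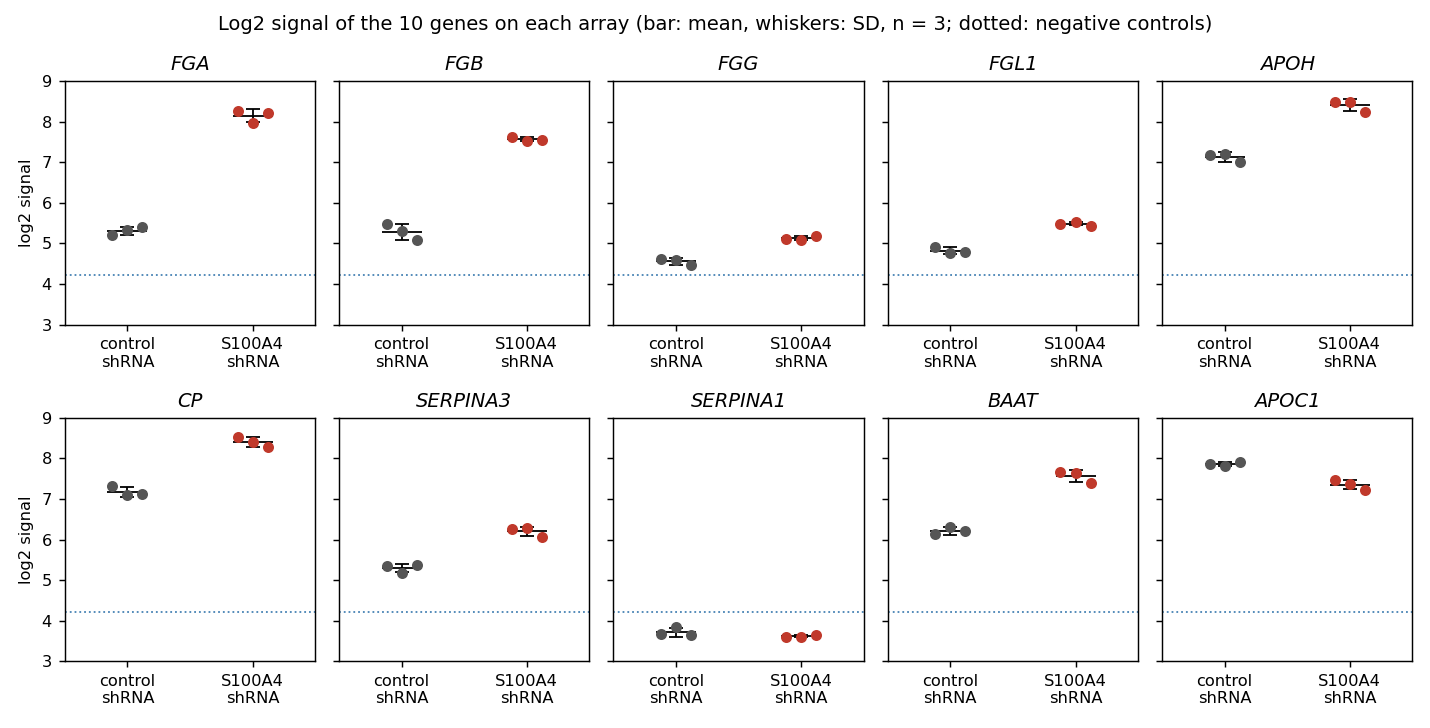
Log2 signal (vertical axis) of each of the 10 genes on the 3 control shRNA arrays (grey) and the 3 S100A4 shRNA arrays (red), with the group mean as a bar, the SD as whiskers and the mean of the negative control medians as a dotted line. In 8 panels the red points sit wholly above the grey ones, by 2.56 for FGA and 0.48 for FGG, APOC1 runs the other way, and SERPINA1 overlaps below the dotted line.

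Taken by number, 8 of the 10 members were higher and 1 lower with S100A4 shRNA with no overlap between the groups. Across all genes 32.8% did not overlap, 14.3% being higher and 18.5% lower. By limma's adjusted p under 0.05, 8 members were called higher and 1 lower, against 6.08% and 5.49% of all genes, and since the members were picked from this comparison nothing is read from these counts. The median log2 difference of the members was 1.07, beside -0.034 for all genes. The SD of a member within a group was between 0.029 and 0.197, and 7 of the members had a mean above the median of all genes, so FGG, FGL1 and SERPINA1 would not pass a filter at that level.

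The authors also deposited a table of group means made by another summary of the same arrays, and its levels correlate with those of the value table across genes at r = 0.78. In the authors' deposited table the log2 difference was 1.72 for FGA, 1.26 for FGB and 0.69 for FGG, a narrower spread among the chains than in the value table. The differences in the authors' deposited table were 0.95 for APOH, 0.89 for CP, 0.78 for BAAT, 0.70 for SERPINA3, 0.53 for FGL1 and -0.32 for APOC1. All 10 members kept the sign they have in the value table. The ratio of the deposited difference to the difference in the value table was 0.607 for FGA and 0.55 for FGB, and its median was 0.52 over the 176 genes that differed by at least 1 on the log2 scale. FGG was the only rising member with a larger difference in the authors' deposited table. SERPINA1 read 6.28 with control shRNA and 6.02 with S100A4 shRNA in the authors' deposited table, a difference of -0.25, while the value table put it below the negative controls. The sources used here do not say which probes went into each summary.

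**Figure D2:**
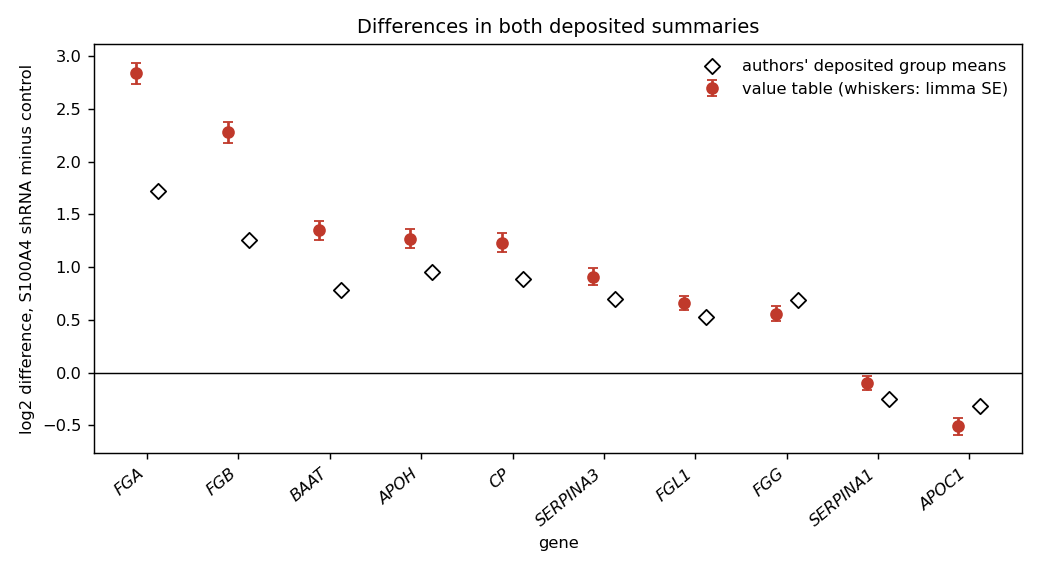
Log2 difference of S100A4 shRNA minus control shRNA (vertical axis) for the 10 genes, ordered by the value table (red, whiskers are limma's SE, n = 3 each), beside the difference of the authors' deposited group means (white). FGA stands at 2.84 and 1.72, and FGG at 0.56 and 0.69.

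The genes beside the members were compared next, taking the 5 nearest measured protein-coding genes on each side. The 3 fibrinogen chains are consecutive in this order on chromosome 4 and share the same 10 neighbours. None of those 10 was called higher and 1, PLRG1, a splicing factor next to FGB, was called lower (log2 difference -0.31, limma adjusted p = 0.0427). That call was lost without any of 5 of the 6 arrays (adjusted p up to 0.135) and with scaling to the positive controls. The neighbours of the chains ranged from -0.31 to 0.11 on the log2 scale. Only 2 of the 10 had a mean above the median of all genes. DCHS2, RNF175, TLR2, LRAT, RBM46 and GUCY1A1 lay below the negative control median on all 6 arrays, so whether they changed cannot be told. SERPINA1 and SERPINA3 lie in the same serpin cluster on chromosome 14. The 5 measured genes between them (SERPINA11, SERPINA9, SERPINA12, SERPINA4 and SERPINA5) differed by between -0.13 and -0.07, with none called. None of these 5 passed the 95th percentile of the negative controls on any array. SERPINA12, SERPINA4 and SERPINA5 lay below the negative control median on all 6. On the far side of SERPINA3, DICER1, the nuclease that makes microRNAs, rose by a log2 difference of 0.83 (limma adjusted p = 0.00111) and CLMN by 0.40.

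Over all 75 neighbours, each counted once, 10 were called higher and 6 lower, 21.3% beside 11.6% of all genes, and the median log2 difference was -0.070. With scaling to the positive controls the split was 14 higher and 0 lower. Besides DICER1, the called neighbours with the smallest p-values were MTUS1 beside FGL1 (log2 difference 0.67), NECTIN2 near APOC1 (0.91), TEX10 near BAAT (-0.46), HLTF near CP (0.40) and TM4SF1, also near CP (0.47). Of the 10 genes around CP, 4 rose, but the calls of HPS3 (0.34) and TM4SF18 (0.29) were lost without any of 4 and 5 arrays (limma adjusted p up to 0.0935 and 0.137). TEX10 was not called with scaling to the positive controls. The apolipoprotein genes next to APOC1 were not called, with log2 differences of -0.07 for APOE, 0.04 for APOC4 and -0.05 for APOC2, chosen after their values were seen.

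**Figure D3:**
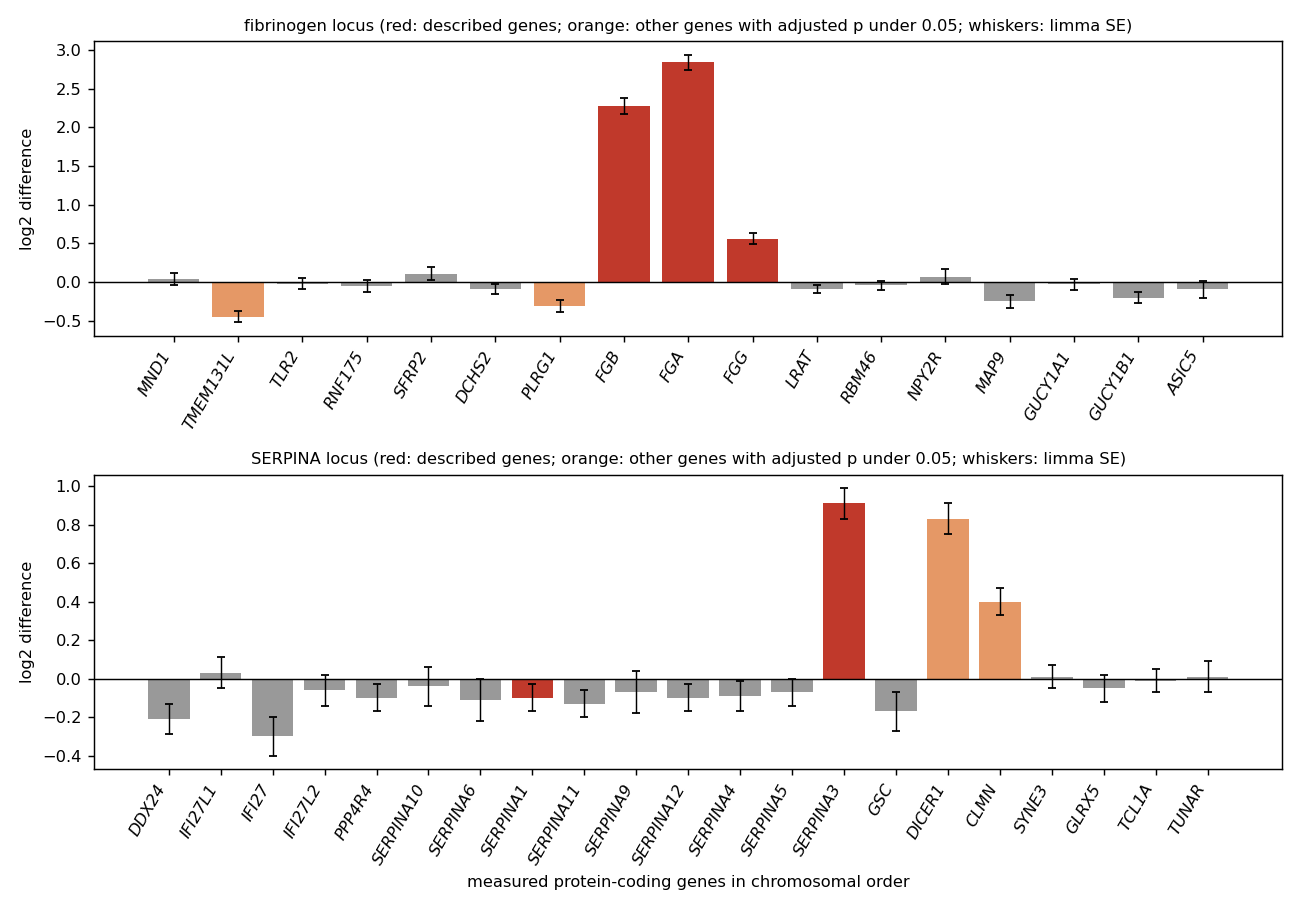
Log2 difference of S100A4 shRNA minus control shRNA (vertical axes, whiskers are limma's SE) for measured protein-coding genes in chromosomal order around the fibrinogen chains (top) and around SERPINA1 and SERPINA3 (bottom), with members in red and other called genes in orange. FGB, FGA and FGG stand at 2.28, 2.84 and 0.56 between neighbours of -0.31 (PLRG1) and -0.09 (LRAT), TMEM131L at -0.45 lies outside the 10 nearest genes, and SERPINA3 at 0.91 beside clade A serpins near 0.

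The other genes of these pathways were taken from 12 lists that hold none of the members, and each was read against the 11.6% of all genes that limma called. Among 20 other acute-phase genes, limma called 2 higher and 0 lower, and 18 did not pass (10.0%). Complement C3 rose by a log2 difference of 0.37, from 8.20 ± 0.10 to 8.57 ± 0.13 (mean ± SD of 3 arrays, with limma's adjusted p at 0.0366), and LBP, which hands lipopolysaccharide to immune cells, by 0.33. Both calls were lost without any of 4 of the 6 arrays (limma adjusted p up to 0.122 and 0.09). C-reactive protein (CRP, -0.19), serum amyloid A (SAA1, -0.02) and haptoglobin (HP, -0.07), chosen after their values were seen, were not called. CRP and HP lay below the negative control median on all 6 arrays, and SAA1 and LBP passed the 95th percentile on none. Of the 20 genes only 1, C3, had a mean above the median of all genes. A missing call at such signals does not show that a gene was unchanged. Of 18 other plasma proteins of the liver 1 rose, 0 fell and 17 did not pass: angiogenin, ANG, a secreted ribonuclease, rose by 0.92, from 6.31 ± 0.09 to 7.24 ± 0.19 (mean ± SD of 3 arrays, with limma's adjusted p at 0.00179). Albumin (ALB, -0.11) and transthyretin (TTR, -0.17), also chosen after their values were seen, were not called. Of these 18 genes 4 had a mean above the median of all genes, and ALB lay below the negative control median on all arrays. ANG passed the 95th percentile of the negative controls on 1 array only.

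Of 8 other clade A serpins none was called by limma, none had an unadjusted p under 0.05 and none was called under any alternative tried. Their log2 differences ranged from -0.13 to -0.04. None of the 8 had a mean above the median of all genes, so the missing calls do not show that they were unchanged. Of 17 other serpins 3 rose, 0 fell and 14 did not pass. SERPINB1, an inhibitor of neutrophil proteases, rose by 0.58 and SERPINB6 by 0.31, the latter a call lost without any of 5 of the 6 arrays (limma adjusted p up to 0.143). Of 27 apolipoproteins and partners of lipoproteins 3 rose, 0 fell and 24 did not pass (11.1% called, median log2 difference 0.014). The paraoxonases PON3 (0.71) and PON2 (0.56) and the phospholipid transfer protein PLTP (0.32) rose. The call of PLTP was lost without any of 3 arrays (limma adjusted p up to 0.0839).

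Of 26 genes of coagulation and fibrin turnover 4 rose, 1 fell and 21 did not pass (19.2% called, median -0.047). TGM2, a transglutaminase that can cross-link fibrin, rose by 1.53, from 11.1 ± 0.19 to 12.6 ± 0.21 (mean ± SD of 3 arrays, with limma's adjusted p at 0.000631). TFPI, the inhibitor of the tissue factor pathway, rose by 1.37, while its relative TFPI2 fell by 0.68. Thrombomodulin, THBD, rose by 0.55, and prothrombin, F2, by 0.23, a call lost without any of the 6 arrays (limma adjusted p 0.0411 with all arrays and up to 0.146 without 1). Of 21 proteins that share the fibrinogen-like domain or belong to its families 2 rose, 0 fell and 19 did not pass (9.52%). They were ANGPTL4 (0.61), an inhibitor of lipoprotein lipase, and CNTNAP1 (0.34), whose call was lost without any of 5 arrays (limma adjusted p up to 0.133). Of all 21 genes, 3 had a mean above the median of all genes.

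Of 22 genes of copper and iron handling 3 rose, 0 fell and 19 did not pass (13.6%, median 0.0045). Ferroportin, SLC40A1, the iron exporter that works with ceruloplasmin, rose by 0.44, from 6.03 ± 0.03 to 6.47 ± 0.07 (mean ± SD of 3 arrays, with limma's adjusted p at 0.00503). The copper pump ATP7A rose by 0.53 and the iron importer SLC11A2 by 0.39. Their calls were lost without any of 2 and 4 arrays (limma adjusted p up to 0.0526 and 0.105). Of 28 genes of bile acid synthesis, conjugation and transport 8 rose, 0 fell and 20 did not pass (28.6%, median 0.022). SLC51B, a subunit of the bile acid exporter of the basolateral membrane, rose by 0.94, from 5.53 ± 0.12 to 6.48 ± 0.06 (mean ± SD of 3 arrays, with limma's adjusted p at 0.0006). KLB, the co-receptor for FGF19, rose by 0.93, its receptor FGFR4 by 0.40, the uptake carrier SLCO1B3 by 0.72, the acyl-CoA synthetase SLC27A2 by 0.54 and the sterol carrier SCP2 by 0.47. SLC27A5 makes the bile acid thioesters that BAAT uses and, chosen after its values were seen, was not called (0.01).

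Signals known to raise fibrinogen in hepatocytes were compared through their receptors, transducers and target genes. Of 30 genes of the interleukin 6 family and STAT3 signalling 8 rose, 0 fell and 22 did not pass (26.7%, median 0.073). Log2 differences in this list ran from -0.39 to 1.08, and the gene at 1.08 is not reported here. The oncostatin M receptor, OSMR, rose by 0.82, from 11.8 ± 0.01 to 12.6 ± 0.12 (mean ± SD of 3 arrays, with limma's adjusted p at 0.000777), and IL6ST, the signalling chain shared by the family, by 0.37. PIAS3, an inhibitor of STAT3, rose by 0.56, STAT5B by 0.57, the interleukin 22 receptor IL22RA1 by 0.45 and the cytokine IL11 by 0.45. The calls of IL6ST and IL11 were lost without any of 3 and 2 arrays (limma adjusted p up to 0.0785 and 0.0902). SOCS3, an early target and inhibitor of STAT3 signalling, had a log2 difference of -0.02 and was not called; it was chosen after its values were seen. In the authors' deposited table, after the same adjustment, 0 of the 30 were called, where 2.12% of all genes were.

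Of 20 genes of the glucocorticoid receptor and its targets 2 rose, 5 fell and 13 did not pass (35%, median -0.047). Their log2 differences ranged from -0.73 to 0.89, and the gene at 0.89 is not reported here. The receptor NR3C1 fell by 0.45, from 9.94 ± 0.04 to 9.49 ± 0.08 (mean ± SD of 3 arrays, with limma's adjusted p at 0.00531). BIRC3 fell by 0.73, RGS2 by 0.37, FKBP5 by 0.36 and FKBP4, a chaperone of the receptor, by 0.33, while ERRFI1 rose by 0.47. With scaling to the positive controls 3 of the 20 rose and 1 fell, and NR3C1, RGS2, FKBP5 and FKBP4 were no longer called. The calls of RGS2, FKBP4, FKBP5 and ERRFI1 were also lost without any of 2, 3, 3 and 4 arrays (limma adjusted p up to 0.068, 0.0777, 0.0797 and 0.0819).

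Of 25 liver-enriched transcription factors 6 rose, 1 fell and 18 did not pass (28.0%, median 0.012). NR5A2, a nuclear receptor of bile acid and steroid genes, fell from 10.8 ± 0.07 to 8.46 ± 0.11 (mean ± SD of 3 arrays), which is a log2 difference of -2.34 (limma adjusted p = 1.79e-05). HNF4A rose by 0.57 and HNF4G by 0.64, CEBPA by 0.36, PPARA by 0.28 and ONECUT1 by 0.47. CEBPB (-0.13), chosen after its values were seen, was not called. The calls of CEBPA, PPARA and ONECUT1 were lost without any of 1, 4 and 5 arrays (limma adjusted p up to 0.0518, 0.0677 and 0.0909).

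**Figure D4:**
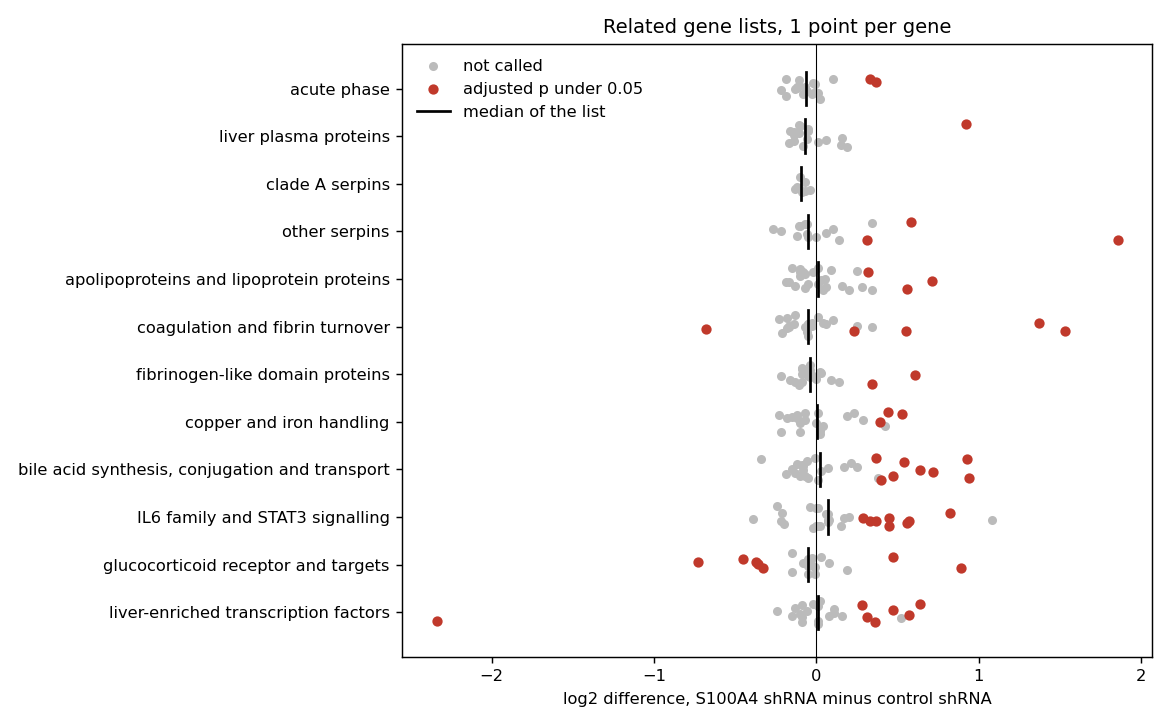
Log2 difference of S100A4 shRNA minus control shRNA (horizontal axis) for each gene of the 12 related lists (rows), red where limma's adjusted p was under 0.05, with the median of each list as a black bar. The medians lie between -0.093 and 0.073, the farthest point to the left is NR5A2 at -2.34, and the row of clade A serpins has no red point.

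Among 10493 protein-coding genes outside the members with a mean above the median of all genes, the genes with profiles near the mean of FGA, FGB and FGG over the 6 arrays included SYT13, HGD, RNF157 and NTRK3. Likeness was the root-mean-square distance between profiles after each gene's own mean was taken off, and it was 0.083, 0.085, 0.101 and 0.143 on the log2 scale for them. The 3 chains themselves stood 0.483 (FGA), 0.212 (FGB) and 0.666 (FGG) from their mean profile, which differed by 1.89 between the groups. BAAT stood at 0.302, nearest of the other members, and APOC1 at 1.204, farthest. As arrays varied little within a group, this distance mostly restates the size of the difference between the groups. The members were picked on that difference, so their order here shows nothing further. SYT13 went from 5.93 ± 0.05 to 7.83 ± 0.18.

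Markers of cell types were read last. All 8 enzymes known to be high in A549 and 5 of 8 epithelial markers were above the 95th percentile of the negative controls on all arrays. Of 14 hepatocyte markers, among them ALB, APOA1, APOB and TTR, none passed that percentile on any array and 7 stayed below the negative control median on all arrays. Their summed linear signal was between 287 and 305 with control shRNA and between 272 and 298 with S100A4 shRNA, and none was called by limma, or had an unadjusted p under 0.05. Another 5 of them, APOA1, APOA2, TTR, CYP3A4 and ASGR1, were above that median on all arrays, as FGG was, and FGG did not pass the percentile either. Markers of megakaryocytes and platelets, a further store of fibrinogen, summed to between 162 and 175 with control shRNA and between 151 and 161 with S100A4 shRNA, with 6 of 6 below the percentile on all arrays. The same held for 8 of 8 alveolar type II, 10 of 10 leukocyte, 8 of 8 fibroblast and 8 of 8 endothelial markers. In the epithelial list 2 markers rose, CDH1 (log2 difference 0.97) and KRT19 (0.42), and 2 fell, KRT8 (-0.44) and KRT18 (-0.58). KRT19 passed the percentile on no array. The summed linear signal was between 107228 and 112145 with control shRNA and between 74721 and 93259 with S100A4 shRNA. That sum rests mostly on KRT8, KRT18 and KRT7, which had the highest signals, and hardly reflects CDH1. The part of these changes in the results above was not tested.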

How the data were processed

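RNA of A549 cells was measured on 6 arrays, 3 per group by their labels. The deposited value table holds log2 signal for 70523 features on each array. A deposited workbook holds, per the file headers, log2 group means, a linear ratio and p-values with no adjustment. The submitters' processing notes name Partek 6.0. The summary method and genome build are not given in the sources used here. Symbols came from the workbook and were updated through RefSeq (GRCh38.p14). Of 26831 clusters with a symbol, the cluster with the highest mean was kept per gene, which left 25141 genes; each member had 1 cluster.

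Log2 values were tested with limma 3.58.1 in R 4.3.3 (lmFit, eBayes, two-sided) and adjusted by Benjamini-Hochberg over all genes, with calls under 0.05. The script was tested on simulated data. The members and lists were chosen with earlier results of these data known. Named genes are S100A4, the members, up to 6 called genes per list with the smallest p (or 2 as values where none was called), called neighbours up to 6 and the 5 nearest profiles; others are marked in the text. Some genes that this rule names are not reported here. No detection calls were used; negative control probe sets gave the background.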

Additional observations from a re-analysis of the deposited data

How the results depend on the processing

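Differences of the members kept their sign under every alternative tried, except that of SERPINA1. Their median of 1.07 was 1.30 with scaling to the positive controls, which moves the median of all genes from -0.03 to 0.19, and 0.74 in the authors' deposited table; leaving out 1 array gave 1.02 to 1.13. No single-gene value of a member depends on the filter on low signal, so that setting was not run for them. S100A4 was called under every alternative (log2 difference -1.36 to -1.82).

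Scaling to the positive controls gave 5160 called genes (4845 higher, 315 lower) in place of 2910 (1529 and 1381), and per list 13 for interleukin 6 and STAT3, 13 for bile acids, 11 for transcription factors, 8 for apolipoproteins, 7 for copper and iron, 5 for other serpins, 4 for plasma proteins and 4 for glucocorticoid genes. In the authors' deposited table, after Benjamini-Hochberg adjustment of its p-values, calls came to 532 genes, with 2 for bile acids, 2 for coagulation, 2 for transcription factors, 2 for neighbours, 1 for copper and iron, 1 for other serpins, and 0 for the acute-phase, plasma protein, apolipoprotein, fibrinogen-like, interleukin 6 and glucocorticoid lists. Quantile normalization gave 6 apolipoprotein and 7 copper and iron genes, array weights 5 and 5, and leaving out the lower 50% of genes gave 1 acute-phase gene, 6 for copper and iron and 4 transcription factors. The cause was not tested. Quantile normalization split the called neighbours 11 higher and 10 lower.

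The replicate numbers were not treated as pairs: deviations of same-numbered arrays correlated at 0.08, 0.17 and -0.01. The replicate block gave 2883 genes, and 5 for copper and iron. Of the named genes, PLRG1 and F2 were not called with the block, nor in the authors' deposited table.

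Leaving out 1 array gave 1539 to 2583 called genes; the largest drops came without control replicate 2 (1816) or 3 (1539) and S100A4 shRNA replicate 1 (1801) or 3 (1767). Per list the range was 4 to 8 for interleukin 6 and STAT3 (5 without control replicate 2 or S100A4 shRNA replicate 1, 4 without control replicate 3), 0 to 1 for acute phase (0 without control replicate 3 or S100A4 shRNA replicate 1), 1 to 4 for copper and iron (1 without control replicate 2 or 3), 1 to 2 for fibrinogen-like proteins (2 only without S100A4 shRNA replicate 2), 2 to 7 for glucocorticoid genes (2 without control replicate 3, 4 without control replicate 1 or 2 or S100A4 shRNA replicate 1), 4 to 7 for transcription factors (4 without control replicate 2 or 3, or S100A4 shRNA replicate 1 or 3) and 10 to 13 for neighbours (10 without control replicate 3). Of the 43 called list genes that the naming rule takes, 26 kept the call without each array in turn, 8 kept it in the authors' deposited table, and 0 changed sign under any alternative. FGG, FGL1, SERPINA3 and SERPINA1 never passed the 95th percentile of the negative controls.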
